A study of Mus musculus with 2 samples.

Results

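The mitochondrial ribosomal protein genes encode the protein parts of the mitoribosome, the ribosome inside mitochondria. The genes described here are the mRNA rows of the deposited count table whose symbol begins with Mrpl or Mrps followed by a number. This rule found 77 genes among 46095 in the table, of which 22673 are typed as mRNA. By subunit, 50 of the 77 encode proteins of the large subunit and 26 proteins of the small subunit. Mrps30 and Mrps18a carry a small-subunit name but belong to the large subunit and are counted there. Mrps36 is in no subunit, since its product is now known as a part of the 2-oxoglutarate dehydrogenase complex. The gene of one further large-subunit protein, MRPL58, is listed in the table as Ict1, falls outside the rule and is given below with other subunits that lack the Mrp name.

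RNA was sequenced from mouse acute myeloid leukaemia (AML) cells, of which 1 library is labelled P2x7-KO and 1 wild type. P2x7, the product of P2rx7, is a cation channel opened by extracellular ATP. The labels give C57BL/6 mice aged 8 weeks and leukaemia-initiating cells taken from bone marrow by sorting for the surface proteins Mac1 and c-Kit, the products of Itgam and Kit, and both libraries share all of this. The sample titles end in KD for the P2x7-KO library and in Scr for the wild-type library, and the sources used here name neither the driver of the leukaemia nor the number of mice behind a library. Each group holds 1 library, so no test between genotypes was possible, no p-value is given, and every interval covers counting error only.

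The mitoribosome makes the few proteins that the mitochondrial genome encodes, all of them subunits of the respiratory chain and the ATP synthase. Its ribosomal RNAs come from mitochondrial DNA, while its proteins are encoded in the nucleus, made by cytosolic ribosomes and imported. Many of these proteins have a bacterial homologue, and others were added during the evolution of mitochondria. The large subunit forms peptide bonds and holds the exit tunnel, and the small subunit reads the mRNA. Human AML cells have been reported to be sensitive to inhibition of mitochondrial translation.

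The library labelled P2x7-KO held 12435916 counts in all, and 12456212 were in the library labelled wild type. P2rx7 itself had 543 counts in the library labelled P2x7-KO and 229 in the library labelled wild type, a ratio of 2.27 (95% counting interval 1.94 to 2.66), so the targeted gene's count goes against the labels, and each direction below is a direction between the libraries as labelled. The altered part of P2rx7 is not named in the labels, and whether the counted reads lie inside it was not tested. The sort genes were present in both libraries, Itgam at 543 and 187 CPM (scaled counts per 1000000) and Kit at 67.6 and 46.0 CPM, in the libraries labelled P2x7-KO and wild type in that order. Marker lists of other cells also differed. In the library labelled P2x7-KO against the library labelled wild type, 4 monocyte genes summed to 2021 against 1217 CPM, 4 neutrophil genes to 1640 against 1361 CPM and 4 primary granule genes to 4332 against 4763 CPM. In the same order, 4 mast cell and basophil genes summed to 39.3 against 377 CPM (Fcer1a at 0 in both), 4 megakaryocyte genes to 16.2 against 41.0 CPM (Pf4 and Ppbp at 0 in both) and 4 T lymphoid genes to 3.06 against 9.78 CPM. Single genes carried the last 2 sums: Itga2b stood at 8.95 against 38.9 CPM while Vwf stood at 7.22 against 2.14 CPM, and Il7r stood at 2.36 against 9.62 CPM while Cd3e had 4 against 0 counts, Cd3g 4 against 1 and Cd3d 1 against 1. Single genes weighed on the other sums too. Of the monocyte genes, F13a1 stood at 732 against 110 CPM, Csf1r and Ccr2 were higher, and Ly6c2 stood at 960 against 995 CPM. Of the neutrophil genes, Ngp and Mmp8 were higher, and Camp (335 against 445 CPM) and Ltf were lower. Of the primary granule genes, Ctsg stood at 588 against 1024 CPM, Elane was slightly lower, and Mpo and Prtn3 slightly higher. Most of the mast cell and basophil gap was Cpa3, with 280 against 4058 counts. The lists' part in the results below was not tested. In bulk RNA, fewer cells of a type and less RNA per cell cannot be told apart.

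The 77 genes lie on 17 chromosomes, with 10 on chromosome 11 and 8 on chromosome 17. Promoter windows of 300 bases, from 250 bases before to 50 after the annotated start, were available from RefSeq (GRCm38.p6) for 68 of the 77 genes, in 74 windows. Both strands were searched for 5 motifs, none of which contains another. The letters CCGGAAG, the core of the site of ETS-family factors, were found in 33.8% of the 74 windows, against 18.3% of 11152 windows of all counted mRNA genes. The YY1 motif AAGATGGCG was found in 10.8% of the members' windows and in 3.17% of those of counted mRNA genes, and the NRF1 motif CGCATGCGC in 9.46% and 3.83%. A stricter form of the NRF1 motif with 10 letters in place of these 9, which was searched first, was in 4.05% of the members' windows and 2.18% of the others. The CCAAT box (CCAAT) was about as frequent in both, at 40.5% and 38.1%, and the GC box (GGGCGG) was in 52.7% of the members' windows and 62.2% of the others. Among all 32851 windows the shares were 8.86% for ETS, 1.40% for YY1, 1.75% for NRF1, 37.4% for the CCAAT box and 35.7% for the GC box. Median GC content was 58.5% in the members' windows and 60.7% in those of counted mRNA genes. The windows below were chosen to show members past 2-fold, the member with the highest ratio and one promoter shared by a pair of members. The members with the lowest ratios, Mrpl40 and Mrps6, are not among them. Each is given 5′ to 3′ on its gene's strand, with matches to the 5 motifs on either strand in capitals. Mrps12 (chr7:28741772-28742071, minus strand) and Mrpl52 (chr14:54426659-54426958, plus strand) were both past 2-fold, with fewer counts in the library labelled P2x7-KO, while Mrps11 (chr7:78782881-78783180, plus strand) shares 141 bases of its window with that of Mrpl46 on the other strand, and Mrps9 (chr1:42850983-42851282, plus strand) was the one member with a ratio above equality.
Mrps12: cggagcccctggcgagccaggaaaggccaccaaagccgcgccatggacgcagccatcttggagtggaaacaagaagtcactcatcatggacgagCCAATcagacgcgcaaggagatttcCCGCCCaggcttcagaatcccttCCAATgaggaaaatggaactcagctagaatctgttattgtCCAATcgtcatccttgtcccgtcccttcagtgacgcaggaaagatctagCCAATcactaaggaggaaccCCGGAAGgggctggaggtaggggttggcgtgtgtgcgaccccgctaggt
Mrpl52: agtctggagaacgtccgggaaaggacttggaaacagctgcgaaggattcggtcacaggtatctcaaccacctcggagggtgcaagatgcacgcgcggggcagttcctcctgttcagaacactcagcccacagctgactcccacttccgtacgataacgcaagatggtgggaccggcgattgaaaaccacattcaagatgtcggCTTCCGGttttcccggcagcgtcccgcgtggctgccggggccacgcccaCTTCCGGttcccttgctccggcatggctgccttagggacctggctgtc
Mrps11: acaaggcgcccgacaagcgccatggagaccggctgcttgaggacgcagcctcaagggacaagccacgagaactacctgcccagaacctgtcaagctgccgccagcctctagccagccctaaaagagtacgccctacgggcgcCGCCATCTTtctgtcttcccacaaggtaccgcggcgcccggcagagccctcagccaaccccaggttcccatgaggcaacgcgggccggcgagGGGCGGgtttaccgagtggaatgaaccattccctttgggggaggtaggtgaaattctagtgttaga
Mrps9: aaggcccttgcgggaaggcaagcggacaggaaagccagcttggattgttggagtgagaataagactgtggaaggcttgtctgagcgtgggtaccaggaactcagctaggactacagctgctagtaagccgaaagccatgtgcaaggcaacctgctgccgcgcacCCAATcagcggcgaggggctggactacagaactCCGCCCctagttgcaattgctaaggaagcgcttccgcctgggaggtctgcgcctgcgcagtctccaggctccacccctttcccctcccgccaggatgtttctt

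The Mrps12 window held 4 CCAAT boxes, 1 GC box and 1 ETS match that begins 1 base after the start site, and the Mrpl52 window held 2 ETS matches on the minus strand. The Mrps9 window held a CCAAT box and a GC box, with no ETS match in these letters. The windows of Mrpl40 and Mrps6, the members with the lowest ratios, held GC boxes and no ETS match either. The median log2 ratio (library labelled P2x7-KO over library labelled wild type) was -0.76 over the 25 members whose window held the ETS letters and -0.57 over the 43 whose window did not, a description with no test. For the YY1 letters the medians were -0.69 with (8 members) and -0.67 without (60 members), and for the NRF1 letters -0.50 with (7 members) and -0.69 without (61 members). For the CCAAT box they were -0.69 with (27 members) and -0.68 without (41 members), and for the GC box -0.68 with and -0.67 without (34 members each). The divergent pair Mrps11 and Mrpl46 had similar ratios: Mrps11 had 265 counts in the library labelled P2x7-KO and 415 in the library labelled wild type (log2 ratio -0.71, counting interval -0.94 to -0.49), and Mrpl46 had 258 and 385 counts (log2 ratio -0.64, interval -0.88 to -0.41). These matches describe letters in a window and not bound sites.

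Every one of the 77 genes was detected in both libraries and passed the minimum of 20 counts over both, and 74 had at least 100. Mrpl40, Mrps23 and Mrpl22 had fewer than 100. Together the 77 genes held 0.277% of all counts in the library labelled P2x7-KO (exact binomial 95% interval 0.274 to 0.280) and 0.416% in the library labelled wild type (0.413 to 0.420). The large-subunit genes held 0.196% and 0.294%, and the small-subunit genes 0.0794% and 0.120%, in the libraries labelled P2x7-KO and wild type in that order. To compare levels between genes, CPM was divided by transcript length in kilobases. On that scale the large-subunit genes had a median of 28.9 CPM per kb in the library labelled P2x7-KO and 41.7 in the library labelled wild type, and the small-subunit genes 21.9 and 33.7. The ranges were wide, from 0.808 to 191 CPM per kb in the library labelled P2x7-KO and from 2.59 to 379 in the library labelled wild type.

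The 5 genes with the highest levels in each subunit, by the library labelled wild type, all have transcripts of under 1000 bases. In the large subunit, Mrpl33, a small protein with a bacterial homologue, stood highest at 191 CPM per kb in the library labelled P2x7-KO and 379 in the library labelled wild type. It was followed by Mrpl54 at 85.6 and 168, Mrpl20 at 91.1 and 152, Mrpl30 at 82.9 and 151 and Mrpl42 at 79.0 and 151 CPM per kb. The neighbours Mrpl20, Mrpl30 and Mrpl42 lay within 1 CPM per kb of each other in the library labelled wild type. In the small subunit, Mrps21 led with 77.0 CPM per kb in the library labelled P2x7-KO and 152 in the library labelled wild type. At the low end stood Mrps23, with 1.12 and 2.59 CPM per kb, Mrpl40 with 0.808 and 5.28, Mrpl47 with 3.36 and 4.77, and Mrpl22 with 4.13 and 5.35. The order of levels was nearly the same in both libraries, with a Spearman correlation across the 77 genes of 0.98, a description in which the gene lengths are shared by both sides.

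**Figure D1:**
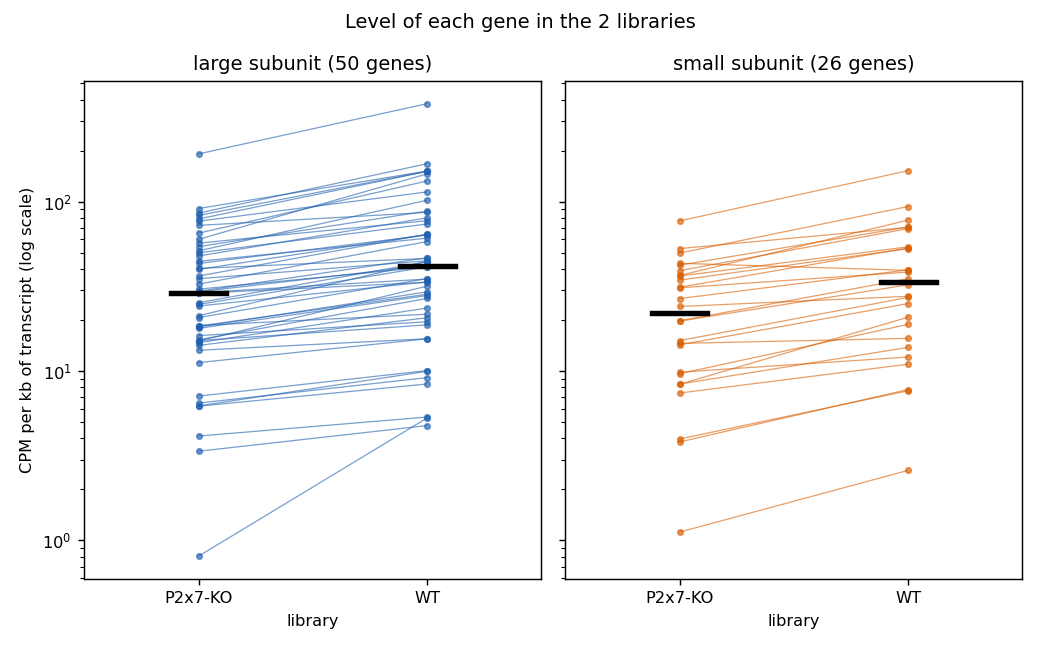
Levels of the 50 large-subunit and 26 small-subunit genes in CPM per kb of transcript (log axis), in the library labelled P2x7-KO and the library labelled wild type, 1 library each. Each point is a gene, lines join its values in both libraries, and black bars are medians. In the large subunit the median was 28.9 in the library labelled P2x7-KO and 41.7 in the library labelled wild type.

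The libraries were compared gene by gene through the ratio of scaled counts, with a gene called when it was at least 2-fold apart and its counting interval excluded equality. Of the 77 genes, 9 (11.7%) were called lower and 0 higher when the library labelled P2x7-KO was set over the library labelled wild type. Among all 13363 genes counted 8.95% were called lower, 10.8% higher and 19.8% in either direction. These include genes not typed as mRNA. Of counted mRNA genes alone 792 of 11316 were called lower, a smaller share. The members' share called lower is near this background of all genes counted, and the count of 9 became 6 with total-count scaling and 14 with upper-quartile scaling. At smaller thresholds the shares stood farther from the background: 44 of 77 (57.1%) were at least 1.5-fold lower, against 18.9% of all genes, and for 73 (94.8%) the counting interval lay wholly below equality, against 34.7% of all genes. For 0 members the interval lay wholly above equality, against 35.6% of all genes. Both interval counts are for the main scaling (TMM). With total-count scaling or DESeq2 size factors each ratio stood higher. Fewer intervals then lay wholly below equality, and that of Mrps9 lay wholly above it. A ratio below equality was seen in 76 of 77 (98.7%), against 49.8% of all genes. Their median log2 ratio was -0.68, against 0.00 over all genes counted and 0.04 over counted mRNA genes. These counts describe 2 libraries and say nothing of variation between mice.

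**Figure D2:**
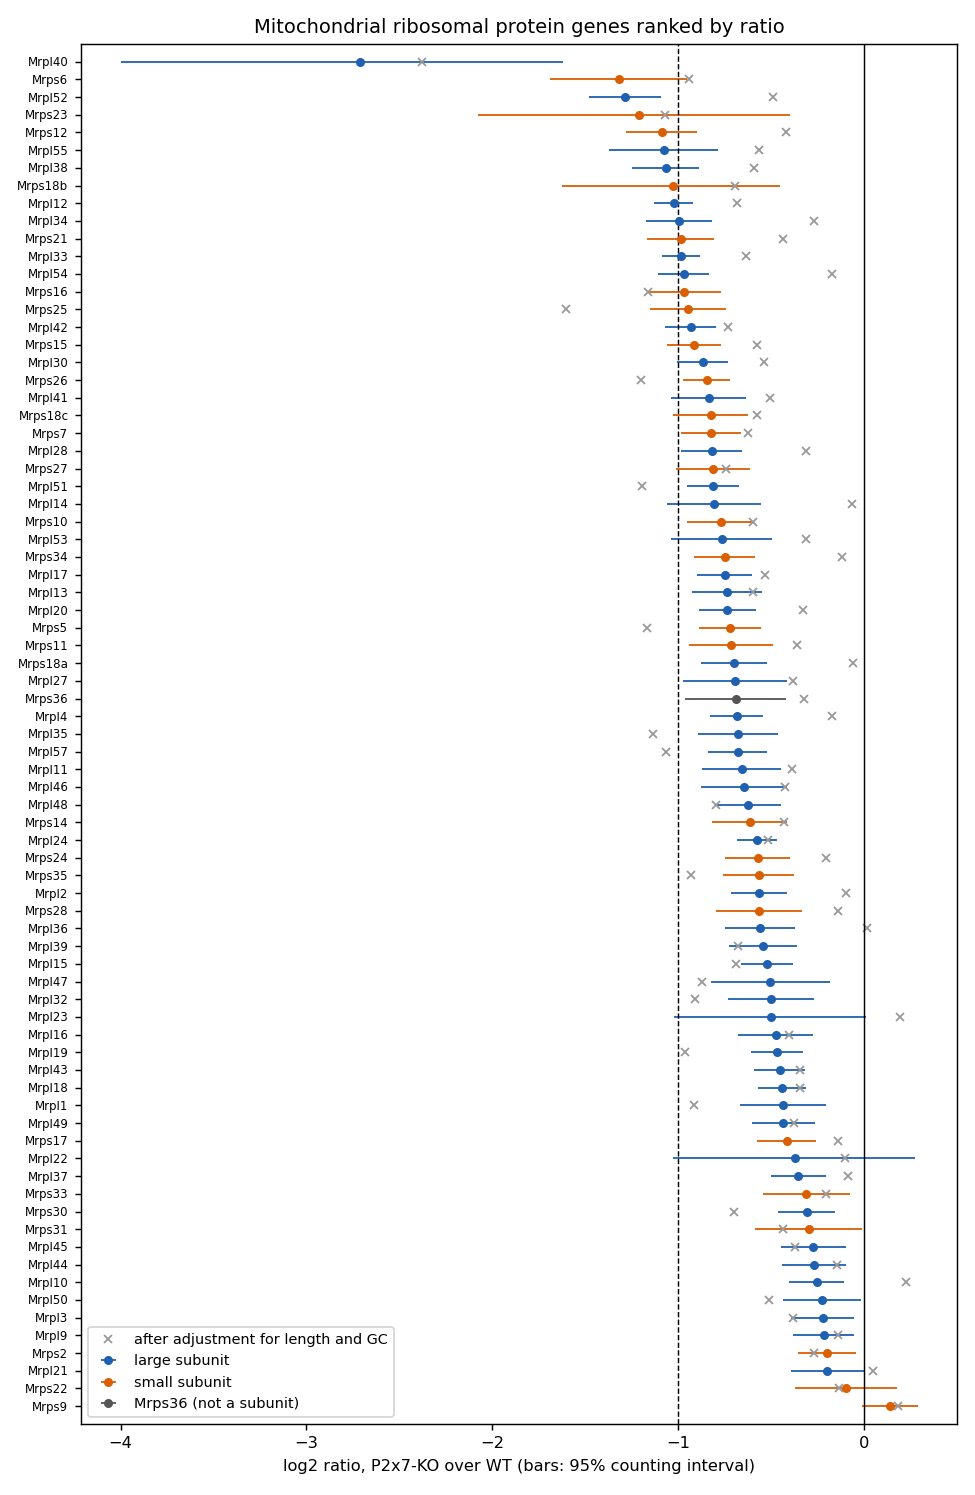
The log2 ratio of scaled counts (library labelled P2x7-KO over library labelled wild type) of each of the 77 genes with its 95% counting interval, ranked from lowest to highest. Mrps9 alone has a ratio above 0, and 9 genes lie at or beyond 2-fold lower.

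In the large subunit 5 of 50 genes were called lower, near the 8.95% of all counted genes, and the median log2 ratio was -0.63. Mrpl40 had 8 counts in the library labelled P2x7-KO and 50 in the library labelled wild type, which is 6.54-fold lower with a wide interval of 3.08 to 16.0. Mrpl52 had 319 and 742 counts, 2.43-fold lower (interval 2.13 to 2.79). Mrpl55, the mitochondrial counterpart of a bacterial large-subunit protein, had 145 and 292 counts, 2.11-fold lower (1.72 to 2.59). Mrpl38, a mitochondria-specific protein of the central protuberance, had 381 and 763 counts, 2.10-fold lower (1.85 to 2.38). Mrpl12 had 1092 and 2121 counts, 2.03-fold lower (1.89 to 2.19). MRPL12 forms the stalk that recruits translation factors, and in human cells it has also been reported to bind the mitochondrial RNA polymerase. Mrpl12 and Mrpl38 were no longer called with total-count scaling, nor Mrpl12 with DESeq2 size factors, and with transcript length removed Mrpl40 was the one of these 5 still called. In GENCODE M21 coordinates (GRCm38, which is mm10) these genes span chr16:18872018-18876862 (Mrpl40), chr14:54426909-54429756 (Mrpl52), chr11:59202486-59206134 (Mrpl55), chr11:116131817-116138868 (Mrpl38) and chr11:120484613-120489065 (Mrpl12), so 3 of the 5 lie on chromosome 11.

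Genes of other large-subunit proteins with named tasks lay below equality without reaching 2-fold. Mrpl33 had 1165 counts in the library labelled P2x7-KO and 2203 in the library labelled wild type, and at 1.98-fold lower (interval 1.84 to 2.13) it was just short of the threshold, as was Mrpl34 with 396 and 753 counts at 1.99-fold (1.76 to 2.25). Mrpl10, which anchors the MRPL12 stalk, had 686 and 782 counts, a log2 ratio of -0.26 (interval -0.41 to -0.11). Mrpl11, a protein of the stalk base, had 306 and 461 counts (log2 ratio -0.66, interval -0.87 to -0.45). The RNA count of Mrpl12 thus stood lower relative to the library labelled wild type than that of Mrpl10. The intervals of Mrpl12 (log2 -1.13 to -0.92) and Mrpl10 do not overlap, and protein was not measured. Mrpl4 had 653 and 1003 counts (log2 ratio -0.69), and Mrpl28 had 485 and 818 (log2 ratio -0.82). Mrpl44, whose protein carries an RNase III-like fold, had 526 and 605 counts (log2 ratio -0.27, interval -0.44 to -0.10). Mrpl45, which ties the exit side of the ribosome to the inner membrane, had 501 and 578 counts (log2 ratio -0.27, interval -0.45 to -0.10). Mrps18a had 429 and 665 counts (log2 ratio -0.70) and Mrps30 had 639 and 756 (log2 ratio -0.31).

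In the small subunit 4 of 26 genes (15.4%) were called lower, against 8.95% of all counted genes, with a median log2 ratio of -0.76. Of these, Mrps6, Mrps12 and Mrps18b have transcripts of under 1000 bases. Among counted mRNA genes with transcripts of up to 1000 bases, 17.99% were called lower. Mrps6 had 90 counts in the library labelled P2x7-KO and 214 in the library labelled wild type, 2.49-fold lower (interval 1.94 to 3.22). Its exons overlap the same-strand gene Slc5a3, which had 5 counts in each library. Mrps23, a mitochondria-specific protein, had 19 and 42 counts, 2.31-fold lower with an interval of 1.32 to 4.21. Mrps12, the homologue of the bacterial decoding-centre protein S12, had 337 and 684 counts, 2.12-fold lower (interval 1.86 to 2.43). Mrps18b had 39 and 76 counts, 2.04-fold lower (1.37 to 3.08). Mrps18b was no longer called with total-count scaling or DESeq2 size factors, Mrps12 and Mrps18b were not with transcript length removed, and Mrps6 was not with GC content also removed. The 4 genes span chr16:92058270-92112227 (Mrps6), chr11:88204388-88211507 (Mrps23), chr7:28739641-28741820 (Mrps12) and chr17:35910379-35916389 (Mrps18b).

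Mrps21, Mrps16 and Mrps5, all with a bacterial homologue, had ratios between 1.65-fold and 1.98-fold lower. Mrps21 had 397 counts in the library labelled P2x7-KO and 751 in the library labelled wild type, and Mrps16 had 316 and 590. Mrps34, a mitochondria-specific protein of the small subunit, had 493 and 792 counts (log2 ratio -0.75, interval -0.92 to -0.59), Mrps25 had 307 and 565 (log2 ratio -0.95) and Mrps15 had 593 and 1067 (log2 ratio -0.91). Mrps18c, a paralogue of Mrps18a and Mrps18b, had 318 and 538 counts (log2 ratio -0.82). The 3 paralogues had intervals that overlapped, so their ratios were not separable by counting error. Mrps17 had 584 and 744 counts (log2 ratio -0.42).

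With the main scaling (TMM) the counting interval included equality for 4 members. Mrps9 had 781 counts in the library labelled P2x7-KO and 678 in the library labelled wild type. Its log2 ratio was 0.14, with an interval of -0.01 to 0.29. With total-count scaling or DESeq2 size factors the Mrps9 interval lay wholly above equality. Mrps22, a mitochondria-specific small-subunit protein, had 222 and 227 counts (log2 ratio -0.10, interval -0.37 to 0.18). Mrpl22 had 38 and 47 counts (log2 ratio -0.37) and Mrpl23 had 57 and 77 (log2 ratio -0.50), with wide intervals at these low counts. Of the members with an interval wholly below equality, Mrps2 had 637 and 699 counts (log2 ratio -0.20), Mrpl9 had 590 and 655 (log2 ratio -0.22) and Mrpl21 had 412 and 451 (log2 ratio -0.20). With total-count scaling the intervals of Mrps2, Mrpl9 and Mrpl21 included equality. That of Mrpl21 did so with DESeq2 size factors as well. The 38 members not named by the rule for named genes had log2 ratios from -0.85 to -0.22, all negative. Mrps36, the member outside both subunits, had 189 counts in the library labelled P2x7-KO and 291 in the library labelled wild type (log2 ratio -0.69). By origin, 48 genes with a bacterial homologue had a median log2 ratio of -0.68 and 28 mitochondria-specific ones -0.66.

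Across all mRNA genes the ratio moved with transcript length, so the members were set against genes of like length. The Spearman correlation of the log2 ratio with transcript length was 0.34 across the 77 members and 0.39 across 10916 mRNA genes, and that with transcript GC content was -0.35 and -0.36, given as descriptions. In transcripts of up to 1000 bases, 34 members had a median log2 ratio of -0.76, against -0.46 over 1390 mRNA genes of that length. From there up to 2000 bases the medians were -0.62 over 25 members and -0.21 over 2790 genes. Above 2000 bases they were -0.52 over 18 members and 0.23 over 6736 genes. The members' median lay below that of genes of like length in all 3 classes. The shares called lower did not differ in one direction. Up to 1000 bases 6 of 34 members (17.65%) were called lower, against 17.99% of the 1390 genes. From there up to 2000 bases 3 of 25 members (12%) were, against 7.78% of the 2790 genes. Above 2000 bases 0 of 18 members were, against 4.32% of the 6736 genes. After subtraction of the fitted trend with length over all genes, the members' median was -0.47 and 71 of 77 lay below 0, against 51.8% of all genes. With both length and GC content removed it was -0.44. In that adjustment 72 of 77 (93.5%) lay below 0, against 53.2% of all 12374 genes with a length.

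**Figure D3:**
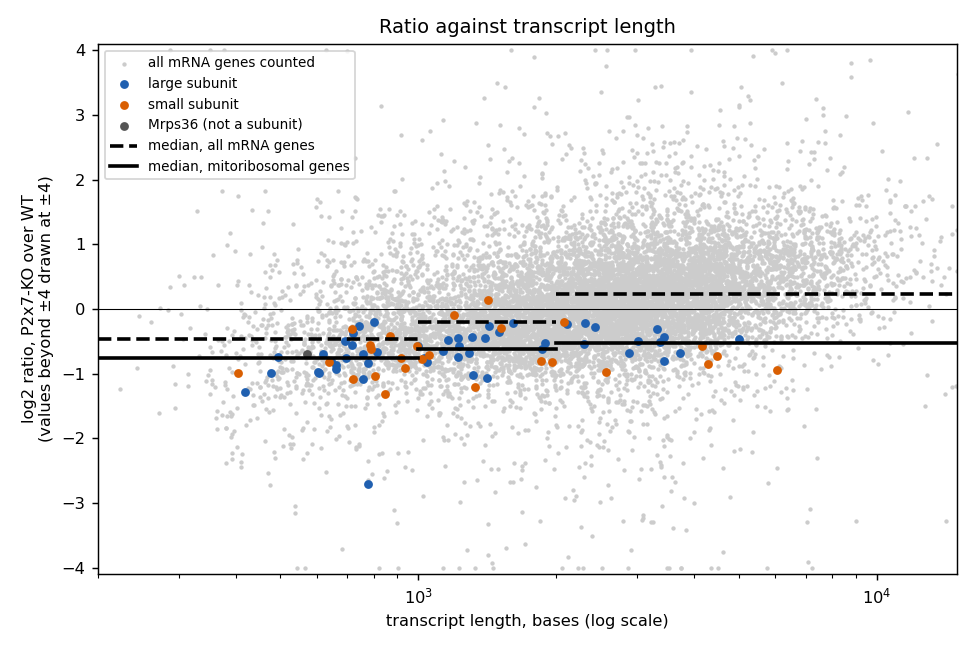
The log2 ratio (library labelled P2x7-KO over library labelled wild type) against transcript length in bases (log axis) for counted mRNA genes and the 77 members. The members lie mainly below 0 at every length, with class medians of -0.76, -0.62 and -0.52 from short to long.

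The genes that reach 2-fold depend on that trend. With length removed 8 members were called lower, against 6.34% of all genes, of which 3 (Mrpl40, Mrps23 and Mrps6) were called without the adjustment. With length and GC content removed 9 were called, against 5.92% of all genes, of which 2 (Mrpl40 and Mrps23) were. Mrps25 and Mrps5, which have long transcripts, had adjusted log2 ratios of -1.60 and -1.17, while Mrpl52 and Mrps12, which have short ones, had -0.49 and -0.42. Mrpl40 had -2.38. Besides Mrps9 at 0.18, Mrpl10, Mrpl23, Mrpl21 and Mrpl36 had adjusted values above 0, at 0.23, 0.19, 0.05 and 0.02. Adjusted for coding length instead, a choice made after seeing the data, Mrps25 and Mrps5 had -0.74 and -0.79, and neither was called.

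No source used here names the counting program or its strand setting, so reads of members that share exons or sequence with another gene are uncertain. By the GENCODE M21 annotation 25 of the 77 members overlap exons of another gene, 21 of them on the other strand, and 16 have a near-identical copy elsewhere. Of the members called lower, Mrps6 overlaps Slc5a3 and Gm49711 on the same strand. Mrpl12 overlaps Gm16755 and Mrps18b overlaps Gm16279, both on the other strand, and Mrps18b has the near-identical copy Gm13552. In the library labelled P2x7-KO against the library labelled wild type, some opposite-strand partners stood in the other direction. Mrps25 had a log2 ratio of -0.95 while its partner Nr2c2 had 1651 and 776 counts (log2 ratio 1.02), and Mrpl48 had -0.62 while Rab6a had 1227 and 808 (0.54). Others stood in the same direction, such as Mrpl36 at -0.56 with Ndufs6, a complex I gene, at -1.17. The 42 members with neither overlap nor copy had a median of -0.65, with 41 below 0. Of these 42, 6 (14.3%) were called lower, against 8.95% of all counted genes. Rows of Mrp pseudogenes, typed as ncRNA and outside the rule, had few counts. Mrpl23-ps1, a near-identical copy of Mrpl23, had 35 in the library labelled P2x7-KO and 45 in the library labelled wild type, beside 57 and 77 for Mrpl23. Mrpl48-ps had 17 and 19, Mrps36-ps1 had 13 and 14, Mrps36-ps2 had 2 and 10, and Mrps36-ps3 had 0 and 0.

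Subunits without the Mrp name lay in the same direction. All 6 had log2 ratios below 0, with a median of -0.56, and 2 (33.3%) were called lower, against 8.95% of all counted genes. Chchd1, a small-subunit protein, had 399 counts in the library labelled P2x7-KO and 939 in the library labelled wild type, 2.46-fold lower (interval 2.19 to 2.78). Gadd45gip1, a large-subunit protein also known as CRIF1, had 514 and 1162 counts, 2.37-fold lower (2.13 to 2.63). Dap3, a GTP-binding small-subunit protein, had 787 and 1093 counts (log2 ratio -0.54), Aurkaip1 had 720 and 1034 (-0.59), Ptcd3, a pentatricopeptide protein, had 642 and 780 (-0.35), and Ict1, a peptidyl-tRNA hydrolase that rescues stalled ribosomes, had 424 and 552 (-0.45).

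Gene lists that act with the mitoribosome without being part of it had medians closer to 0. With length and GC content removed, the members' median was -0.44. Over genes with an annotated length, the lists' medians were then -0.27 for translation factors and -0.26 for assembly and rRNA modification. They were -0.22 for aminoacyl-tRNA synthetases and -0.11 for transcription. Each gap to the members was smaller than without that adjustment. Of 17 genes listed as mitochondrial translation factors, with a median log2 ratio of -0.32, 1 (5.88%) was called lower, against 8.95% of all genes, and 0 higher. That gene was Slirp, whose protein stabilises mitochondrial mRNAs together with LRPPRC and is not itself a translation factor. Slirp had 162 counts in the library labelled P2x7-KO and 578 in the library labelled wild type, 3.73-fold lower (interval 3.13 to 4.47). Its partner Lrpprc had 1145 and 854 counts (log2 ratio 0.36), which became 0.03 with length removed and -0.08 with length and GC content removed. The elongation factor gene Tufm had 396 and 702 counts (-0.89), the recycling factor gene Mrrf 142 and 247 (-0.86), the initiation factor genes Mtif2 579 and 558 (-0.01) and Mtif3 252 and 314 (-0.38), the elongation factor gene Gfm1 773 and 676 (0.13) and the release factor gene Mtrf1 183 and 105 (0.74).

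Of 24 genes for assembly of the mitoribosome or modification of its rRNA, 2 (8.33%) were called lower and 0 higher. The share called lower among all counted genes was 8.95%, and the median log2 ratio of the 24 was -0.35. The rRNA methyltransferase gene Rnmtl1 (Mrm3) had 98 counts in the library labelled P2x7-KO and 192 in the library labelled wild type (log2 ratio -1.04), and Wbscr16 (Rcc1l) had 248 and 477 (-1.01). On the other side Gtpbp10 had 208 and 125 counts (0.67) and Mterf3 292 and 244 (0.19). Nsun4, an rRNA methyltransferase, had 165 and 148 counts (0.09), its partner Mterf4 120 and 134 (-0.23), and Tfb1m 112 and 137 (-0.36). For 10 genes of mitochondrial transcription and DNA upkeep 0 were called, against 19.8% of all counted genes in either direction. Their median was -0.01, which turned to 0.06 with total-count scaling and 0.03 with DESeq2 size factors. Tfam, the main mitochondrial DNA-packaging factor, had 430 and 408 counts (0.01) and the polymerase gene Polrmt 479 and 627 (-0.45). For 20 mitochondrial aminoacyl-tRNA synthetase genes 0 were called, against the same 19.8%. Their median was -0.21, with ratios from Aars2 with 400 and 625 counts (-0.71) to Mars2 with 150 and 106 (0.43).

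**Figure D4:**
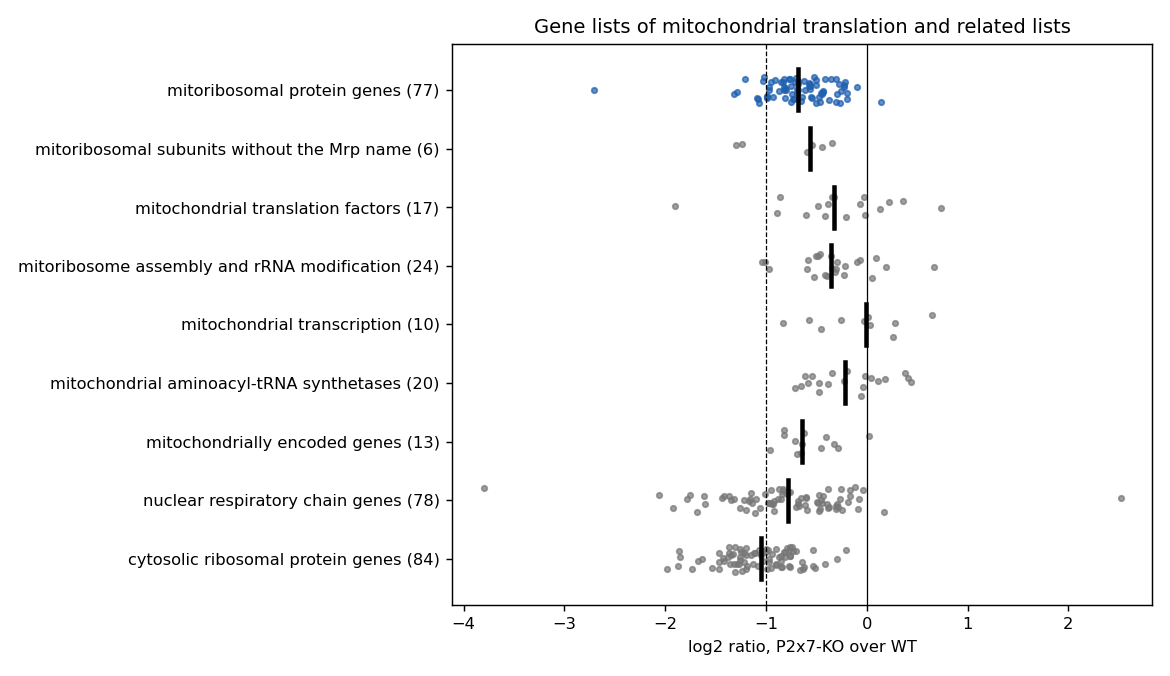
Log2 ratios (library labelled P2x7-KO over library labelled wild type) of the 77 members beside related gene lists, 1 point per gene, with a black bar at the list's median and a dashed line at 2-fold lower. Medians run from -1.05 for cytosolic ribosomal protein genes and -0.68 for the members to -0.01 for mitochondrial transcription genes (0.06 with total-count scaling and 0.03 with DESeq2 size factors).

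The members' products are made on cytosolic ribosomes and work for the respiratory chain, and genes of both groups also had ratios mainly below equality. Of 84 cytosolic ribosomal protein genes counted, 46 (54.8%) were called lower and 0 higher, against 8.95% and 10.8% of all counted genes. Their median log2 ratio was -1.05, lower than the members' -0.68. Of 78 nuclear respiratory chain genes counted, 24 (30.8%) were called lower and 1 higher, with a median of -0.79. These lists are of short transcripts, and with length and GC content removed their medians were -0.68 and -0.38, against -0.44 for the members. Of the 13 mitochondrially encoded mRNA genes, whose transcripts the mitoribosome reads, 0 were called, against 19.8% of all counted genes in either direction. Their median was -0.64. In 12 the interval lay wholly below equality, against 34.7% of all counted genes, and at high counts a small difference is enough for that. ND4 had 12669 counts in the library labelled P2x7-KO and 23589 in the library labelled wild type (log2 ratio -0.96), COX1 had 142304 and 165280 (-0.28), and ND4L had 66 and 62 (0.02). The interval of ND4L included equality. Overlaps with other genes were looked up for the members only, so how reads were assigned among the mitochondrially encoded genes is uncertain. Values between genes of these lists are differences and not levels.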

How the data were processed

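RNA of 2 libraries was compared, 1 labelled P2x7-KO and 1 labelled wild type, both of sorted mouse leukaemia cells. The deposited table holds raw read counts per gene with a gene type, and 0 value columns were left out. Per the submitters' processing notes, HISAT2 2.0.4 and mm10 were used. The counting program, annotation and strand setting are not named in any source here. Totals were 12435916 and 12456212 counts, so a gene at 0 is limited to 0.236 and 0.247 CPM (taking 3 counts as the limit) in the libraries labelled P2x7-KO and wild type in that order. Reads are not independent molecules, and intervals and limits cover counting error only.

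Scaling used TMM factors from edgeR 4.0.16 (R 4.3.3), computed on the whole table, and CPM values include them. The ratio of scaled counts has an exact Clopper-Pearson 95% counting interval. A gene was called when it was at least 2-fold apart and its interval excluded equality, among genes whose counts in both libraries sum to 20 or more. For medians and counts below 0, 0.5 was added to each count. Transcript length was the median length of a gene's GENCODE M21 basic transcripts of its own type, and trends with length and GC content were fitted with mgcv 1.9.3 and subtracted. A near-identical copy was a match of at least 95% over at least 300 bases (BLAST 2.17.0). The call and the trend adjustment were tested on simulated data. Alternatives were other scalings (total count, DESeq2 1.42.0, upper quartile, TMM without abundant genes), other count minimums and folds, and adjustment for length and GC content.

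The members and lists were chosen with earlier results of these data known. The genes named are the members called, those with the highest and lowest levels and ratios, those nearest 2-fold, members preset by role, and the extremes of each related list. Mrpl23, Mrpl36, Mrpl46, Mrpl48, Mrps11 and Mrps33, and the overlap partners Slc5a3, Nr2c2, Rab6a and Ndufs6, were added after their values were seen. The NRF1 motif was shortened after the shares of its longer form were seen, and both are given. The marker lists of 2 further cell types are not reported here. Some of the genes that the rule takes are given by their lists alone.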

Additional observations from a re-analysis of the deposited data

How the results depend on the processing

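Each group holds 1 library, so no replicate could be left out. No paired analysis was possible because each group holds 1 library and no test was made. The 76 members below equality stayed at 76, with the sign of each kept, under the 4 other scalings. The count called lower was 6 with total count scaling (Mrpl12, Mrpl38 and Mrps18b no longer called), 7 with DESeq2 size factors and 10 with TMM without abundant genes. It was 14 with the upper quartile, which adds Mrpl33, Mrpl34, Mrpl54, Mrps16 and Mrps21. The 8.95% of all genes called lower is for the main TMM scaling, and the share under the other scalings is not given here. With TMM scaling the members' count was 44 with a 1.5-fold call, 73 with the interval alone, and 7 at a minimum of 100 counts. Adjustment for coding length, chosen after seeing the data, gave 4 calls and a median of -0.45. Without members that overlap exons or have a copy, also chosen after seeing the data, 41 of 42 lay below 0. The members' median was -0.44 with length and GC content removed. With length removed the medians were -0.42 for subunits without the Mrp name, -0.39 for nuclear respiratory chain genes and -0.66 for cytosolic ribosomal protein genes. With GC content also removed the 3 medians were -0.68, -0.38 and -0.68. Of the 6 subunits without the Mrp name, 5 had an annotated length and enter these adjusted medians. The cause was not tested. Besides Mrps9, the members above 0 were Mrpl10, Mrpl21, Mrpl22, Mrps22 and Mrps33 with length removed, and Mrpl10, Mrpl21, Mrpl23 and Mrpl36 with length and GC content removed. Mitochondrially encoded genes had no annotated length here and no adjusted value. Depth limits Mrpl40, Mrps23 and Mrpl22 most, at under 100 counts over both libraries.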
